A study of Mus musculus with 24 samples.

Results

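The genes described here are 7 regulators of cell division whose RNA was recovered with STAU2 from the embryonic mouse cortex: Aspm, Plk1, Ccnb1, Cenpe, Bub1b, Kif11 and Ccnd2. They were chosen by name with earlier results of these data known, so their calls beside those of all genes are descriptive. Every peak that the deposited table gives to one of these symbols was taken, which made 16 of 14297 gene peaks and 7 of 7970 genes. All 7 genes and all 16 peaks passed the filter on low counts. The samples were brain cortex of C57BL/6 embryos at embryonic stages E11.5, E13.5 and E15.5, and at the latest, E17.5, with 3 RNA immunoprecipitations per stage made with an anti-STAU2 antibody, and no treatment or mutation is given for any of the 4 groups. The labels do not give the number of embryos per sample or say whether replicates came from separate embryos, so that the p-values cover no more than library-to-library spread, which may be technical. The cortex was not sorted into cell types. A level per stage therefore cannot tell fewer dividing cells from less RNA per cell, and, since the 12 input libraries were not analysed here, it also mixes the amount of an RNA with its binding by STAU2.

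STAU2 is a double-stranded RNA-binding protein that packages mRNAs into particles, and in the mouse cortex it is inherited unequally when radial glia divide. Radial glia are the stem cells of the cortex. They divide at the ventricular surface, and both the duration of their G1 phase and the orientation of their spindle are known to bear on whether a daughter stays a progenitor or becomes an intermediate progenitor or a neuron. Of the genes described, Plk1 and Ccnb1 start mitosis, Aspm and Kif11 build the spindle, Cenpe and Bub1b serve the kinetochore, and Ccnd2 acts in G1. Loss of ASPM causes primary microcephaly in humans, in which the cortex is too small at birth. The Ccnd2 mRNA is known in mouse for its transport along the radial glial fibre to the basal endfoot.

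The sequences under the peaks differed in kind between the genes. A peak is a place where recovered RNA was counted, and whether STAU2 binds there was not tested. Ccnd2 was covered by 1 peak over the 5′ end of its mRNA, with 269 bases of 5′ untranslated region and 99 coding bases. Aspm, Plk1 and Bub1b were covered in coding exons and adjoining intron, and Ccnb1 and Kif11 in their 3′ untranslated regions only. Cenpe was covered both in a coding exon with adjoining intron and in its 3′ untranslated region. The stretches printed here are coding bases under 3 of the peaks, on mm10 with exons of GENCODE vM21. They are shown because each holds a functional part of the coding sequence. Counts are per whole peak, so they do not place reads within a stretch. The Ccnd2 stretch, at chr6:127150675-127150773 on the minus strand in exon 1 of 5, opens with the start codon, in capitals. The Plk1 stretch, at chr7:122161546-122161651 on the plus strand in exon 3 of 10, holds the codon of the activation-loop threonine, in capitals, whose phosphorylation switches the kinase on. The Aspm stretch, at chr1:139479532-139479676 on the plus strand in exon 18 of 28, holds in capitals an in-frame match to the calmodulin-binding IQ motif, which Aspm carries in many copies.
Ccnd2 exon 1: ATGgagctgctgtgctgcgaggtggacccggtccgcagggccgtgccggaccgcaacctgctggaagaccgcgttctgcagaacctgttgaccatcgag
Plk1 exon 3: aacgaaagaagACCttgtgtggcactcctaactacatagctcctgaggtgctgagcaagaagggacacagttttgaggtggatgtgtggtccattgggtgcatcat
Aspm exon 18: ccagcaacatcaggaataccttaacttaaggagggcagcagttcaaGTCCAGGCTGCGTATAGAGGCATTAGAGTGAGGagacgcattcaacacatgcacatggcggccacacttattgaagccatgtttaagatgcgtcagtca

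**Figure D1:**
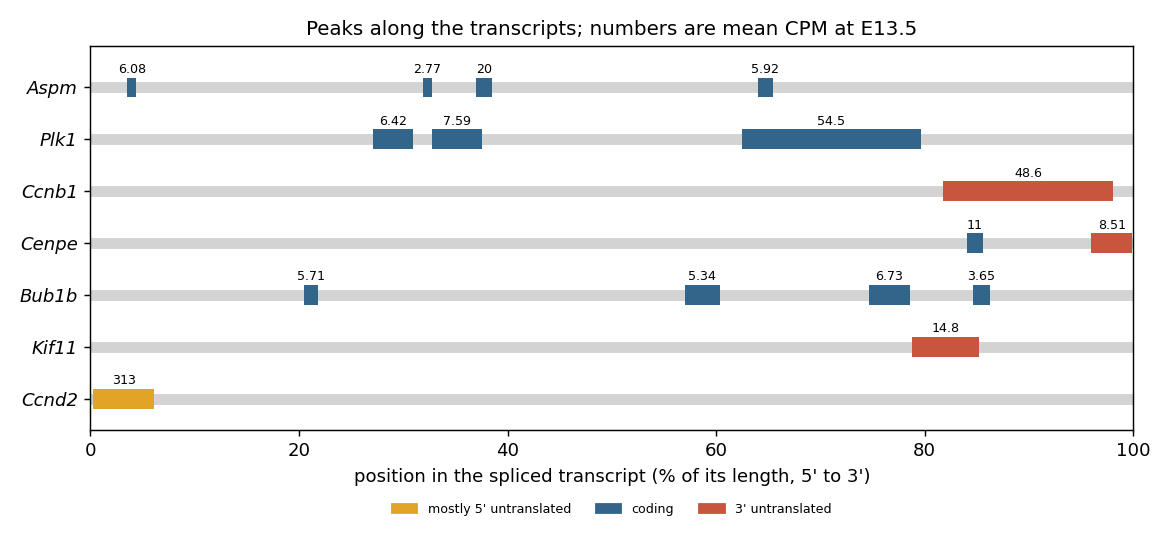
Position of the 16 peaks along the spliced transcripts of the 7 genes, as a percentage of transcript length from the 5′ end; the numbers are mean CPM at E13.5. The Ccnd2 peak lies at the 5′ end, and the peaks of Ccnb1 and Kif11 and 1 of 2 Cenpe peaks lie in 3′ untranslated regions. The exonic bases of the other peaks are coding. All of these but the Aspm peak in exon 18 also hold intronic bases, which the spliced axis leaves out.

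In full, Aspm (ENSMUSG00000033952) had 4 peaks, in exon 1, exon 12, exons 14 and 15, and exon 18 of its 28 exons. Bub1b (ENSMUSG00000040084, chromosome 2) had 4 peaks, in exons 5, 15, 20 and 22 of 23. Plk1 (ENSMUSG00000030867) had 3 peaks, in exon 2, exon 3 and exons 8 to 10 of 10. Cenpe (ENSMUSG00000045328, chromosome 3) had 2 peaks, in exon 41 of 46 and at the end of the 3′ untranslated region. Ccnb1 (ENSMUSG00000041431, chr13:100778698-100779102, minus strand) and Kif11 (ENSMUSG00000012443, chr19:37420838-37421148, plus strand) had 1 peak each. Most of the exon peaks ran on into introns: of the 4 Aspm peaks, 3 held 64, 319 and 250 intronic bases, and all 4 Bub1b peaks held between 84 and 282. STAU2 binds paired RNA, and the central 145 bases were folded with RNAfold for the 5 of 16 peaks in which they lay within a single exon. The predicted free energy was -41.9 kcal/mol in Kif11, -40.3 in Ccnb1, -33.4 in Aspm exon 18, -29.2 in Ccnd2 and -27.8 in the Cenpe 3′ untranslated region. Over 5844 such windows of the table the median was -32.1 kcal/mol and the quartiles were -40.3 and -25 kcal/mol. The Kif11 window lay just beyond the lower quartile, the Ccnb1 window at it and the other 3 between the quartiles. Among untranslated windows alone the median was -31 and the lower quartile -38.8 kcal/mol, and both Kif11 and Ccnb1 lay beyond that quartile. Among coding windows alone the median was -36.1 kcal/mol, and the Aspm window was less stable than that. The window length was that of the narrowest peak of the table. Whether STAU2 binds within these windows was not tested.

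Depth and composition set the precision of these values. Totals over gene rows were 4688215 to 6374892 counts per library, and the 7 genes together held 934 to 1189 counts in an E11.5 library, 3075 to 4264 in an E13.5 library, 2288 to 3295 in an E15.5 library and 480 to 653 in an E17.5 library. The composition of the E11.5 libraries set them off: rows called Intron held 56.3% to 64% of their gene-row counts, against 22.6% to 34% in the 9 later libraries. Levels are in CPM, a gene's counts over its library's gene-row total after TMM scaling. The TMM factors of the E11.5 libraries had a mean of 0.521 ± 0.0652 (SD, n = 3), and the means of the later stages lay between 1.18 and 1.35. With scaling by the gene-row total instead, the median of all genes moved to 1.22 on the log2 scale at E13.5 against E11.5 and to 1.23 at E17.5 against E11.5. Among 7876 genes tested, that scaling called 5172 higher and 138 lower at E13.5 against E11.5, where TMM called 998 and 939. All comparisons with E11.5 are therefore relative to the median gene, and the comparisons among the 3 later stages carry less of this limit, where the median lay between -0.16 and 0.19 with that scaling and between -0.40 and 0.15 with scaling by all peaks.

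Over the 4 stages all 7 genes changed, and for each of them the 3 libraries of E17.5 lay below the 9 earlier ones. Aspm, Plk1, Ccnb1, Cenpe, Bub1b and Ccnd2 fell between 2.41-fold and 4.59-fold at E17.5 against E15.5. The change over the stages was called for 7 of 7 genes and for 15 of 16 peaks at an adjusted p under 0.05 (edgeR's quasi-likelihood F test, Benjamini-Hochberg), where 53.7% of all genes and 46.6% of all peaks were called. The exception was the Aspm peak in exon 12, with 1 to 23 counts per library (adjusted p = 0.0665).

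**Figure D2:**
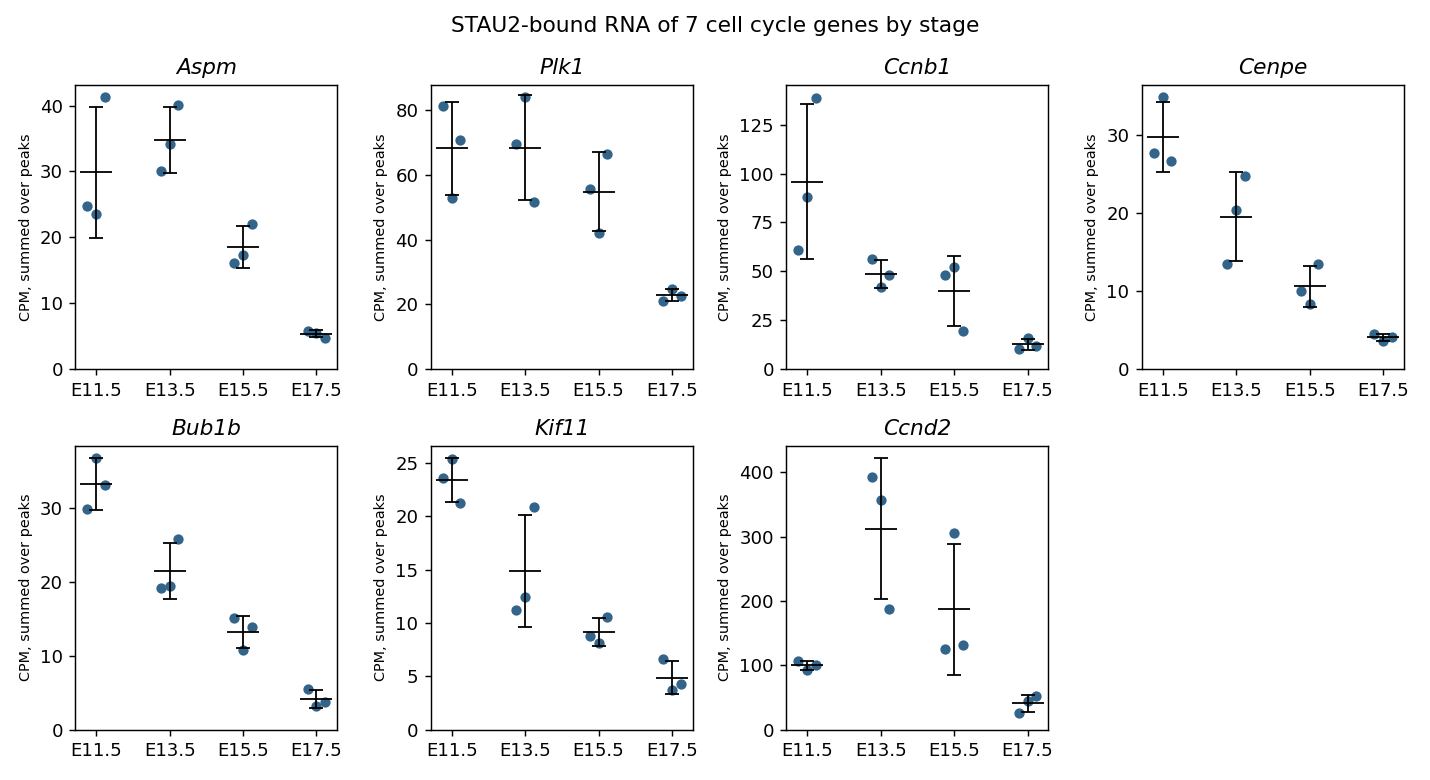
Level of each gene in CPM, summed over its peaks, in the 12 libraries by stage; points are libraries, bars the mean ± SD of 3. Ccnd2 is high at E13.5 and E15.5 and the other 6 genes are highest at E11.5 or E13.5, and all have their lowest mean at E17.5.

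The regulators of mitotic entry come first. Plk1, the polo-like kinase that matures centrosomes and drives entry into mitosis, had 81.2, 52.7 and 70.6 CPM at E11.5, 69.7, 83.9 and 51.6 at E13.5, 55.8, 42.0 and 66.4 at E15.5, and 21.0, 24.7 and 22.4 at E17.5. The first 3 stages overlapped, and every E17.5 library lay below every earlier one. The log2 change at E17.5 against E15.5 was -1.27 ± 0.27 (SE, adjusted p = 0.00412, edgeR). Ccnb1 encodes cyclin B1, the partner that activates Cdk1 at the G2 to M transition. Its levels were 60.9, 88.0 and 139 CPM at E11.5, 56.3, 41.8 and 47.9 at E13.5, 48.1, 52.3 and 19.6 at E15.5, and 10.4, 15.8 and 11.8 at E17.5. Every library of E13.5 lay below every one of E11.5 without passing the test (log2 change -0.98 ± 0.36, SE, adjusted p = 0.059), and the third E15.5 library was low. The change of Ccnb1 at E17.5 against E15.5 was -1.65 ± 0.38 (SE, adjusted p = 0.00596).

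Next are the spindle genes. Aspm, a spindle-pole protein that keeps spindles focused, had 24.8, 23.5 and 41.3 CPM at E11.5, 30.1, 34.2 and 40.1 at E13.5, 16.1, 17.4 and 22.1 at E15.5, and 5.79, 5.50 and 4.74 at E17.5. E11.5 and E13.5 overlapped, and E15.5 lay wholly below E13.5 although that step was not called (-0.91 ± 0.27, SE, adjusted p = 0.202). At E17.5 against E15.5 the log2 change of Aspm was -1.79 ± 0.29 (SE, adjusted p = 0.000674). Kif11, the kinesin that pushes the spindle poles apart, had 23.6, 25.4 and 21.2 CPM at E11.5, 11.2, 12.4 and 20.9 at E13.5, 8.77, 8.08 and 10.6 at E15.5, and 6.61, 3.73 and 4.27 at E17.5. Its stages did not overlap in any consecutive pair, yet it was the only member not called at E17.5 against E15.5 (-0.91 ± 0.33, SE, adjusted p = 0.0638). Without the first E17.5 library, which was the highest of its stage, that step passed (adjusted p = 0.0457), and without the third E13.5 library it passed as well (adjusted p = 0.049). Over all fits that left out 1 library each, the adjusted p of Kif11 at that step ran from 0.0457 to 0.184 (edgeR). Its log2 change ran from -1.19 to -0.75.

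The kinetochore genes had lower means at each later stage. Cenpe, the kinesin that moves chromosomes to the metaphase plate, had 27.8, 34.9 and 26.6 CPM at E11.5, 13.46, 20.4 and 24.8 at E13.5, 9.98, 8.35 and 13.51 at E15.5, and 4.46, 3.55 and 4.11 at E17.5. The E13.5 and E15.5 libraries of Cenpe touched, and its other consecutive stages were apart. Bub1b encodes BubR1, a component of the spindle checkpoint that delays anaphase until chromosomes are attached. Its levels were 29.9, 36.8 and 33.2 CPM at E11.5, 19.1, 19.4 and 25.8 at E13.5, 15.1, 10.8 and 13.8 at E15.5, and 5.45, 3.20 and 3.79 at E17.5. Consecutive stages of Bub1b did not overlap. At E17.5 against E15.5 the log2 change was -1.39 ± 0.32 for Cenpe and -1.67 ± 0.30 for Bub1b (SE, adjusted p = 0.00647 and 0.00121, edgeR).

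Ccnd2, the G1 gene, had a course of its own. It encodes cyclin D2, which activates Cdk4 and Cdk6. Its levels were 107, 92.9 and 99.97 CPM at E11.5, 392, 357 and 188 at E13.5, 125, 305 and 131 at E15.5, and 25.6, 44.6 and 52.0 at E17.5. Every E13.5 library lay above every E11.5 library, the E15.5 libraries overlapped those of E13.5, and E17.5 lay below all other stages. At E13.5 against E11.5 Ccnd2 rose by 1.64 ± 0.38 on the log2 scale, 3.12-fold (SE, adjusted p = 0.00502, edgeR), and at E17.5 against E15.5 it changed by -2.20 ± 0.39 (SE, adjusted p = 0.00112), 4.59-fold lower.

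Set per kilobase of peak, the levels at E13.5 ordered the genes as Ccnd2, Ccnb1, Plk1, Kif11, Aspm, Cenpe and Bub1b. Ccnd2 had 848 ± 296 CPM per kb and Ccnb1 120.1 ± 18.1 (SD, n = 3 each). Plk1 had 71.6 ± 16.95, Kif11 47.8 ± 16.9, Aspm 31.6 ± 4.56, Cenpe 31.1 ± 9.09 and Bub1b 16.9 ± 2.96 CPM per kb. Ranges of the 3 libraries were apart between Ccnd2 and Ccnb1, between Ccnb1 and Plk1, and between Cenpe and Bub1b. Those of Plk1 and Kif11, of Kif11 and Aspm, and of Aspm and Cenpe overlapped. Counting exonic bases only, the order changed below Ccnd2: Plk1 and Ccnb1 were level at 120.2 and 120.1 CPM per kb of exon, followed by Aspm at 74.5, Bub1b at 57.1, Kif11 at 47.8 and Cenpe at 45.0.

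At the first step, from E11.5, Ccnd2 was the sole member called. Of the 7 genes, edgeR called 1 higher and 0 lower at E13.5 against E11.5, where 12.7% of all genes were called higher and 24.6% either way. At an unadjusted p under 0.05, Bub1b and Ccnb1 were lower in edgeR, and DESeq2 called Ccnb1 lower as well. Without the first E11.5 library (adjusted p = 0.0352) or the third E15.5 library (adjusted p = 0.0278) edgeR also called Ccnb1, which made 2 genes. Over all fits that left out 1 library each, the adjusted p of Ccnb1 at this step ran from 0.0278 to 0.277 (edgeR). Its log2 change ran from -1.22 to -0.61. The sign of the log2 change of Cenpe, Bub1b, Kif11 and Ccnb1 rested on the scaling, below 0 with TMM and above 0 with scaling by the gene-row total or by all peaks, which moved all genes up alike. The members' median was below that of all genes each time, at -0.60 against 0.04 with TMM, 0.59 against 1.22 with the gene-row total and 0.65 against 1.27 with all peaks. Aspm was above 0 with TMM too (0.22), and with the totals Aspm (1.43 and 1.49) and Plk1 (1.16 and 1.21) were called higher beside Ccnd2, as were 5172 and 5276 of all genes.

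The ratio of Ccnd2 to Ccnb1 within a library is free of scaling, and it sets a cyclin of G1 against a cyclin of mitosis. It was 1.75, 1.06 and 0.72 at E11.5, 6.95, 8.54 and 3.92 at E13.5, 2.59, 5.83 and 6.68 at E15.5, and 2.45, 2.81 and 4.36 at E17.5. The 9 later libraries all lay above the 3 of E11.5, and the 3 later stages overlapped each other. The mean log2 ratio was 2.62 ± 0.58 at E13.5 and 0.14 ± 0.64 at E11.5 (SD, n = 3 each), a difference of 2.48. The ratio differed between the 4 stages (exact permutation test over the 15400 partitions of 12 libraries into 4 stages, two-sided, p = 0.00558). At E13.5 against E11.5, Ccnd2 and Ccnb1 had the highest and the lowest log2 change of the 7 members (1.64 and -0.98). The test does not allow for that choice of pair, so its p is descriptive. Of the counts at the Ccnd2 peak, some may belong to the antisense gene 9330179D12Rik, which the table counts on the other strand of the same peak. Its counts made up 9.76% to 42.9% of the counts of both strands together in the E11.5 libraries, 11.8% to 33.9% in those of E13.5, 13.9% to 23.3% in those of E15.5 and 11.1% to 28.3% in those of E17.5. The library kit marks the strand, but the strand setting of the counting is not given in the sources used here.

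**Figure D3:**
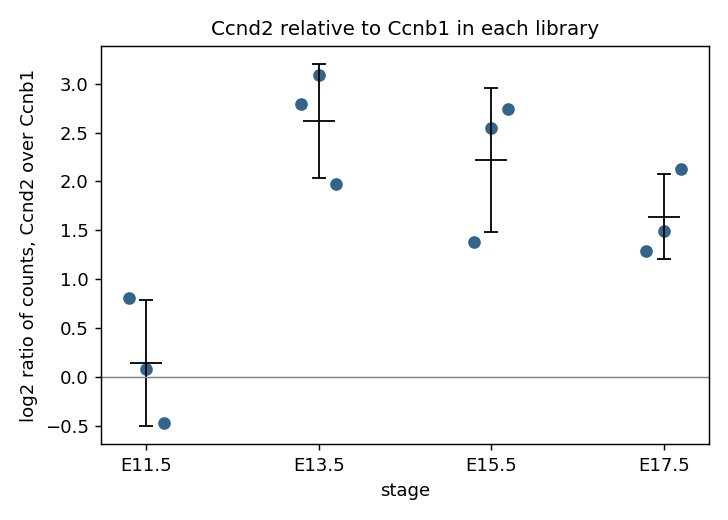
Log2 ratio of Ccnd2 counts to Ccnb1 counts in each of the 12 libraries by stage, with the mean ± SD of 3 libraries. The E11.5 libraries lie between -0.47 and 0.81 and all later libraries lie above them, at 1.29 or more.

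At the second step, E15.5 against E13.5, no member passed the test. All 7 log2 changes were below 0, between -0.91 for Aspm and -0.28 for Ccnb1. edgeR and DESeq2 each called 0 of 7 genes, edgeR called 0.673% of all genes, and 4 of 7 genes had an unadjusted p under 0.05 in edgeR: Aspm, Cenpe, Bub1b and Kif11. All 7 genes were also below 0 with both scalings by totals. Without the third E15.5 library, which was low for Ccnb1, 1 gene lay above 0, Ccnb1 at 0.04.

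At the third step, E17.5 against E15.5, all 7 log2 changes were below 0 and 6 of 7 genes were called lower, where 11.1% of all genes were called lower. The median log2 change was -1.65, against 0.00 for all genes, and Ccnd2 and Kif11 stood at the ends with -2.20 and -0.91. The 3 libraries of E17.5 lay below the 3 of E15.5 for all 7 genes, as for 18.9% of all genes.

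**Figure D4:**
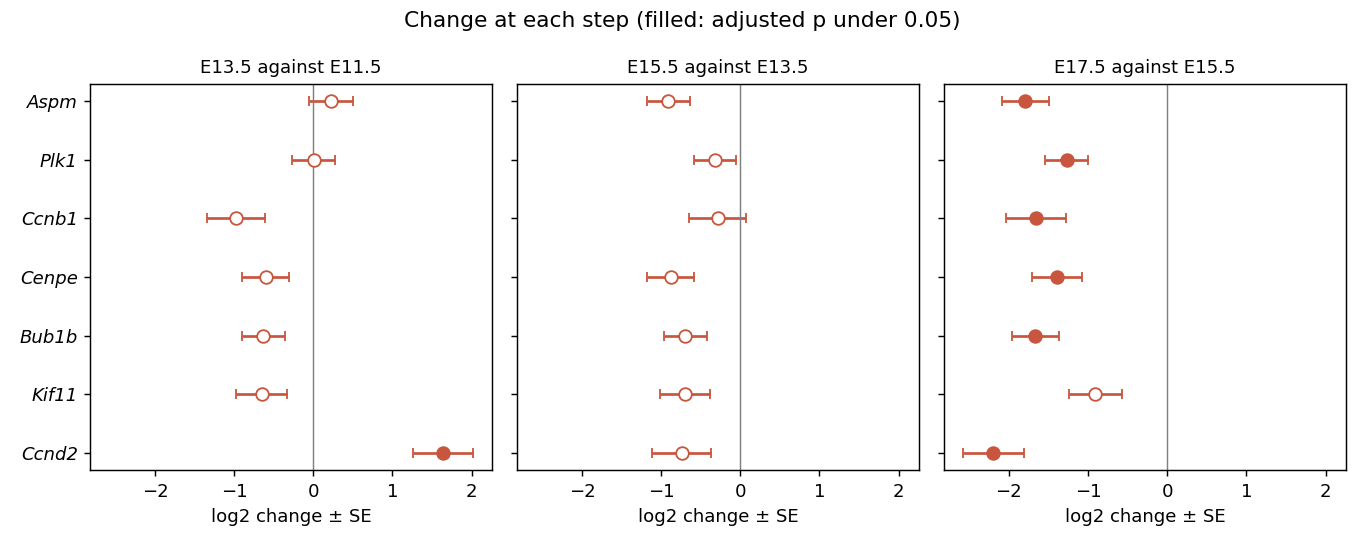
Log2 change ± SE of the 7 genes at the 3 consecutive steps, later stage over earlier; filled points passed an adjusted p under 0.05. Ccnd2 is the only filled point at the first step, no point is filled at the second, and 6 of 7 are filled below 0 at the third.

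Across the longer span the fall was shared by every member. At E17.5 against E13.5, 7 of 7 genes fell (18.6% of all genes were called lower), and the median log2 change was -2.27. The changes were -2.94 ± 0.40 for Ccnd2, -2.70 ± 0.30 for Aspm, -2.36 ± 0.30 for Bub1b, -2.27 ± 0.32 for Cenpe, -1.94 ± 0.38 for Ccnb1, -1.61 ± 0.33 for Kif11 and -1.59 ± 0.27 for Plk1 (SE). That is from 7.66-fold lower in Ccnd2 to 3.01-fold lower in Plk1, with adjusted p between 9.26e-06 and 0.00146 (edgeR). All 7 calls also held in the 12 fits that left out 1 library each, in the fit without the E11.5 libraries and with both scalings by totals.

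At E17.5 against E11.5, again 7 of 7 genes fell with TMM, where 29% of all genes were called lower. Bub1b had the largest log2 change at -2.99 ± 0.31, followed by Ccnb1 at -2.92 ± 0.39 and Cenpe at -2.87 ± 0.33, and Ccnd2 the smallest at -1.29 ± 0.38 (SE). Ccnd2 and Plk1 lost their calls with scaling by the gene-row total, where their log2 changes were -0.09 and -0.40, and by all peaks, where they were -0.32 and -0.63. The other 5 genes were called lower with both.

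The peaks were tested one by one as well. At E17.5 against E13.5, 16 of 16 peaks fell (15.1% of all peaks were called lower), from -3.17 ± 0.51 in exon 5 of Bub1b to -1.52 ± 0.44 in exon 3 of Plk1, with a median of -2.15. At E17.5 against E11.5, all 16 fell with TMM, where 26.1% of all peaks were called lower. There the gene-row total left 10 peaks called and all peaks left 11, the calls of Ccnd2, of the 3 Plk1 peaks and of exon 12 of Aspm being lost with both and that of exon 22 of Bub1b with the gene-row total only. At E13.5 against E11.5 the Ccnd2 peak was the only one called, where 17.2% of all peaks were called either way. At E15.5 against E13.5, 0 of 16 peaks were called by edgeR or DESeq2 and 3 had an unadjusted p under 0.05 in edgeR, where 0.319% of all peaks were called. At E17.5 against E15.5, all 16 peaks had a log2 change below 0 and 11 of 16 were called lower, where 7.17% of all peaks were called lower. The 5 peaks not called were exon 12 of Aspm, exon 22 of Bub1b, exon 3 of Plk1, the Cenpe 3′ untranslated region and Kif11. This last number was fragile: 5 peaks were called without the first E17.5 library, 6 without the third E15.5 library and 7 without the third E17.5 library.

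Within a gene, the division of counts over the peaks did not change detectably at this depth. The Plk1 peak over exons 8 to 10 held 78.6% ± 2.97 of the gene's counts in E11.5 libraries, 79.8% ± 1.81 in E13.5 libraries, 81.6% ± 2.18 in E15.5 libraries and 81.1% ± 1.13 in E17.5 libraries (SD, n = 3). The Aspm peak over exons 14 and 15 held 43.2% ± 5.10, 57.7% ± 2.68, 51.3% ± 8.04 and 54.2% ± 20.7 in the same order. Of the 13 peaks of the 4 genes with several peaks, none passed the test for a changed share of the gene at E13.5 against E11.5, E17.5 against E13.5 or E17.5 against E11.5 (edgeR's diffSpliceDGE, 0 of 13 each, 0 of 13 each at an unadjusted p under 0.05), where 0.321%, 0.435% and 1.47% of all such peaks were called. In Bub1b, exon 5 held 15.2% ± 2.62 of the counts at E17.5, against 26.5% ± 3.61 at E13.5 (SD, n = 3 each). At E17.5 the Bub1b peaks had 3 to 18 counts per library, so a moderate shift would not be detectable there.

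Among themselves, the kinetochore genes and Kif11 followed each other most closely over the 12 libraries. Pearson's r of log2 CPM was 0.979 between Cenpe and Bub1b, 0.976 between Cenpe and Kif11 and 0.969 between Bub1b and Kif11. Ccnd2 stood farthest off, with r between 0.389 (Kif11) and 0.747 (Aspm). These are descriptions over 12 libraries that share 4 stages and the TMM scaling. Of 5270 named genes with a mean of at least 10 CPM, those most like Cenpe were Kif15 (0.986), Tpx2 (0.985) and Foxm1 (0.983), and those most like Bub1b were Knl1 (0.989), Anln (0.987) and Plk4 (0.983). Kif15, Tpx2, Knl1, Anln and Plk4 act in spindle, kinetochore, cytokinesis and centriole, and Foxm1 is a transcription factor of G2 and M. The nearest to Plk1 was Incenp (0.976), a subunit of the chromosomal passenger complex, followed by Cd63-ps and H1f0 (0.968 each). Cd63-ps and Mdk-ps1 are pseudogenes, whose counts may hold reads of their parent genes. Kif11 was nearest to Mdk-ps1 (0.984), Gpbp1l1 (0.983) and Cenpe, Ccnb1 to Cmc2 (0.983), Cntfr (0.981) and Plagl2 (0.978), and Aspm to Ttc23 (0.965), Col1a1 (0.965) and Pimreg (0.962). For Ccnd2 they were Selenon (0.947), Lrp4 (0.933) and Nhlh1 (0.926). Col1a1, near Aspm, is one of the meningeal markers given below.

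Other genes of the cell cycle are given by list, without the 7 members, at E17.5 against E13.5. The lists too were chosen with earlier results of these data known. In the counts of list genes here and of markers below, fell and rose mean called lower and called higher. Of 20 spindle and kinesin genes tested, 17 fell and 1 rose, with a median of -1.82 and Kif15, a kinesin partner of Kif11 in spindle assembly, at -2.87 ± 0.33. The 1 that rose was Ckap5, a microtubule polymerase, at 0.99. Of 16 kinetochore and checkpoint genes, 11 fell and 0 rose, with a median of -1.48. Birc5, the survivin subunit of the chromosomal passenger complex, changed by -2.96 ± 0.32, and Sgo1, which guards centromeric cohesion, by -2.76. Of 15 genes of mitotic entry and exit, 10 fell and 1, the condensin subunit Ncapd2, rose by 0.81. Foxm1 changed by -2.48 and Ube2c, a ubiquitin-conjugating enzyme of the anaphase-promoting complex, by -2.45.

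In the G1 list 9 of 12 genes fell and 0 rose, with a median of -1.05, the transcription factors E2f2 at -2.79 and E2f1 at -2.05 among them. Of 11 DNA replication genes 4 fell and 0 rose, with a median of -0.63. Of 15 genes of human primary microcephaly, some of which stand in the other lists too, 6 fell and 1, Ncapd2 again, rose, with a median of -0.45, the centriole assembly gene Stil at -3.01 being the lowest. The median over all 7876 genes was 0.00, and 36.1% of them were called either way. With scaling by all peaks Ncapd2 was no longer called and 14 of the 16 kinetochore genes fell, while the spindle list kept 17 lower and 1 higher.

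**Figure D5:**
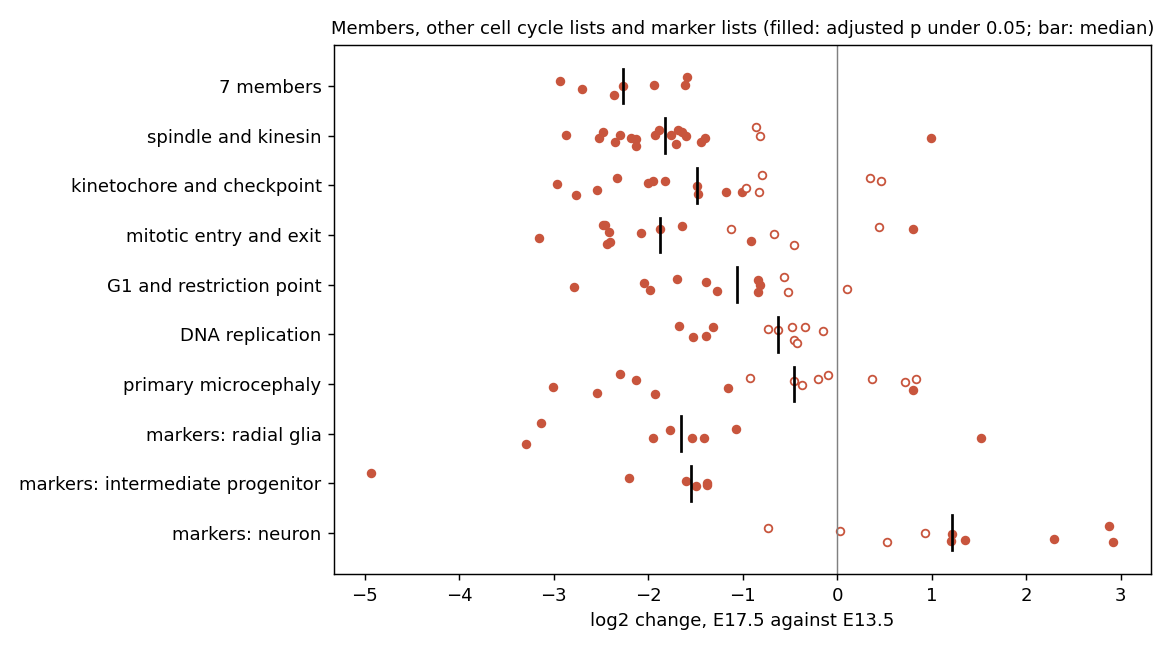
Log2 change at E17.5 against E13.5 of the 7 members, of the genes of 6 cell cycle lists and of 3 marker lists; each point is a gene, filled where the adjusted p was under 0.05, and the bar is the median. The members lie between -2.94 and -1.59, most spindle genes lie below 0, and most neuronal markers lie above 0.

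A second D-type cyclin, Ccnd3, was chosen for mention after its values were seen, because its course differed from that of Ccnd2. It had 246 ± 34.5 CPM in E11.5 libraries, 52.5 ± 13.1 in E13.5 libraries, 34.3 ± 4.23 in E15.5 libraries and 29.9 ± 5.23 in E17.5 libraries (SD, n = 3). At E13.5 against E11.5 it fell by 2.23 ± 0.26 on the log2 scale (SE, adjusted p = 2.44e-05, edgeR), and it was called lower with scaling by the gene-row total (-1.03) and by all peaks (-0.98) as well. Ccnd2 rose at that step under all 3 scalings.

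Markers of cell types give the setting in which the members fell. Among all 7876 genes, 1465 were called lower and 1376 higher at E17.5 against E13.5. Of 8 radial glial markers tested, 7 fell and 1, the fatty acid binding protein Fabp7, rose at E17.5 against E13.5, with Prom1 at -3.30, Pax6 at -1.77, Sox2 at -1.54 and Hes5 at -1.07. Fabp7 held most of the list's counts at E17.5, with 647 to 1023 CPM at E17.5, against 240.5 to 378 CPM at E13.5. The other 7 markers summed to 146 to 226 CPM at E17.5, against 627 to 993 CPM at E13.5, so the sum of all 8, 802 to 1170 CPM at E17.5 and 915 to 1371 CPM at E13.5, overlapped through Fabp7 alone. All 6 markers of intermediate progenitors fell (Eomes at -1.50), and their sum was 127 to 151 CPM at E17.5, against 452 to 548 CPM at E13.5. Of 10 neuronal markers 6 rose and 0 fell, or 5 and 1 with scaling by all peaks, and their sum was 4732 to 5005 CPM at E17.5, against 1904 to 2157 CPM at E13.5. The part of such changes in the fall of the members was not tested. A rise at E13.5 with a later fall was not particular to Ccnd2. At E13.5 against E11.5, 5 of the 6 markers of intermediate progenitors were called higher and 0 lower, with a median log2 change of 1.66. At that step 12.7% of all genes were called higher. All 6 of these markers were called lower at E17.5 against E15.5, where 11.1% of all genes were.

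Markers of other tissues moved unevenly. At E17.5 against E13.5, 18.6% of all genes were called lower, and the microglial count, 1 of 4, was near that share. All 7 meningeal markers fell at E17.5 against E13.5, and their sum was 3.48 to 4.13 CPM at E17.5, against 299 to 321 CPM at E13.5. Of 3 endothelial markers 2 fell (5.50 to 9.64 CPM at E17.5, 19.98 to 49.9 CPM at E13.5), of 4 microglial markers 1 fell (8.85 to 16.7 CPM at E17.5, 17.2 to 28.9 CPM at E13.5, with Pf4 at 0 in all 3 E17.5 libraries), and of 5 interneuron markers 4 rose (605 to 699.9 CPM at E17.5, 199.9 to 433 CPM at E13.5). Neither of the 2 erythroid markers tested was called, and their sum was 0 to 0.178 CPM at E17.5, against 0.858 to 1.04 CPM at E13.5 and 29.3 to 33.4 CPM at E11.5. Dividing cells of these tissues can hold the same mitotic RNAs, and their part in the values above was not tested.

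The promoters of the members were searched because the genes fell together. RefSeq promoter sequences on GRCm38.p6 were matched for 6 of the 7 genes, all but Ccnd2. The letters TTTGAA and TTTAAA, the core of the cell cycle genes homology region, and CCAAT, the box bound by NF-Y, were searched on both strands in the 250 bases before the start site. TTTAAA reads the same on both strands, and no motif overlaps a different one in the stretches shown. TTTGAA or TTTAAA was found in 4 of the 6, Aspm, Kif11, Plk1 and Ccnb1, and in 25.5% of 27025 promoters. CCAAT was found in 6 of 6, and in 34.5% of all promoters. The last 110 bases before the start are shown for the 3 genes that hold both motifs there, with the motifs in capitals: Ccnb1 at chr13:100786487-100786596 on the minus strand, Plk1 at chr7:122159325-122159434 on the plus strand and Kif11 at chr19:37376272-37376381 on the plus strand, where both motifs stand on the minus strand and read as their reverse complements.
Ccnb1 promoter: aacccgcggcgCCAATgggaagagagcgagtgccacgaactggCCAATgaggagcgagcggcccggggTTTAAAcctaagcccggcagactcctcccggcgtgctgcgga
Plk1 promoter: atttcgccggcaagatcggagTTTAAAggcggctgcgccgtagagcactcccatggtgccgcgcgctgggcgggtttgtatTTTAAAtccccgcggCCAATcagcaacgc
Kif11 promoter: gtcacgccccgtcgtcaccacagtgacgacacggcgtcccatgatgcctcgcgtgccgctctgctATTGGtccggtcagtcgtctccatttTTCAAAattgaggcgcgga
In Ccnb1 the TTTAAA begins 42 bases before the start and the CCAAT boxes 99 and 67 bases before it, in Plk1 the TTTAAA sites begin 89 and 29 bases and the CCAAT box 14 bases before it, and in Kif11 the TTTGAA begins 19 bases and the CCAAT box 45 bases before it. A match is a description of the letters and not evidence of binding, and no expression was measured apart from the RNA bound to STAU2.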

How the data were processed

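The authors deposited whole-number counts per merged peak and strand for 12 libraries. HOMER 4.10 and, as genome, mm10 or GRCm38 appear in the submitters' processing notes. The sources used here do not name the aligner, the counting tool or the peak settings. The columns carry stage and replicate numbers that an immunoprecipitation and its input share, and were taken to be the immunoprecipitations, since the rows are peaks. Rows without a gene were left out: 4513 called Intergenic, which are even throughout and exactly double in the 606 whose peak and strand a gene row has too, and 165 others.

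Counts were summed per gene and also kept per peak, then tested with edgeR 4.0.16 (R 4.3.3; TMM, filterByExpr, quasi-likelihood F test, Benjamini-Hochberg at 0.05) over 7876 genes and 14106 peaks. All 12 libraries entered 1 fit by stage, with no block for the replicate. The biological coefficient of variation was 0.305 for genes and 0.342 for peaks. Peak shares were tested with diffSpliceDGE. For the ratio, 0.5 was added to each count. Windows were folded with RNAfold 2.7.2. The procedure was also run on simulated counts with a common mean profile, in which chosen genes or peaks were moved at E17.5 only. Such counts lack the composition shift of E11.5, so that run does not bear on the scaling there. DESeq2 1.42.0, other scalings and filters, fits of 2 stages, a block, leaving out Intron rows or each library, and, added after seeing the data, leaving out E11.5 were the alternatives. All members are named, with up to 4 further genes per list by smallest p at E17.5 against E13.5, a few named exceptions, and 3 most correlated genes per member. Members and lists were chosen with earlier results of these data known.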

Additional observations from a re-analysis of the deposited data

How the results depend on the processing

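Apart from leaving out single libraries, the processing moved the members' counts of calls by over 1.5 times only in comparisons with E11.5. At E13.5 against E11.5, 1 gene was called in the main analysis. DESeq2 and the fit of these 2 stages called 2 (Ccnd2 higher, Ccnb1 lower), and scaling by the gene-row total or by all peaks called 3, all higher. For peaks at that step the main count was 1, against 5 with the gene-row total and 6 with all peaks. The log2 change of the Aspm peak in exon 18 was -0.05 there with TMM and 1.13 and 1.18 with those scalings. At E17.5 against E11.5 the gene-row total left 10 of 16 peaks called. TMM by construction holds the median gene near 0 and scaling by totals does not, hence the shift of the median gene given above. Which scaling is nearer to the amounts of RNA was not tested.

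Leaving out 1 library at a time gave 7 member genes over the 4 stages, 1 to 2 at E13.5 against E11.5, 0 at E15.5 against E13.5, 6 to 7 at E17.5 against E15.5 and 7 at both longer spans. For peaks it gave 13 to 15 over the 4 stages, 1 and 0 at the first and second step, 5 to 12 at E17.5 against E15.5, 14 to 16 at both longer spans and 0 changed shares. The difference in the mean log2 ratio of Ccnd2 to Ccnb1 at E13.5 against E11.5 ran from 2.18 to 2.82. The exact permutation test of that ratio over the 4 stages, which does not allow for the choice of pair, gave p between 0.00344 and 0.0235.

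The labels do not say that a replicate number marks a shared source, and not every same-numbered pair of libraries deviated together: 13 of 18 pairs correlated above 0.1 (range -0.179 to 0.555), among them 6 of 6 of number 2 (0.181 to 0.555), 3 of 6 of number 1 and 4 of 6 of number 3. The 36 pairs of different numbers ran from -0.474 to 0.495, and a smaller part of them correlated above 0.1. Of the 12 libraries, 6 correlated best with their own number. The numbers were not taken as pairs in the main fit, though those of number 2, and less clearly the others, give a hint of one. With the replicate block, member genes called numbered 7, 1, 0, 6, 7 and 7, as without it, peaks numbered 16, 1, 0, 12, 16 and 16, against 15, 1, 0, 11, 16 and 16 without it, no share changed, and the ratio gave p = 0.0208 (exact permutation within blocks). Leaving the E11.5 libraries out of the fit, chosen after seeing the data, gave 0, 6 and 7 genes and 0, 11 and 16 peaks at E15.5 against E13.5, E17.5 against E15.5 and E17.5 against E13.5, as with them. At E17.5 most peaks had fewer than 20 counts per library, which limits their precision.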
